A study of Mus musculus with 16 samples.

Results

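The comparison concerned the cells of B16 melanomas that lacked B2m against those of control B16 melanomas in mice that received an isotype antibody. The members were the cell barcodes of the 4 isotype lanes with at least 200 detected genes and at most 10% mitochondrial UMI counts (UMIs are the molecular tags that count transcripts). They numbered 50233 of the 99357 barcodes that passed the same limits in the 8 lanes of the series, with 26308 from control and 23925 from B2m-null tumours. All mice were C57BL/6J, carried 1000000 Bro4.1 B16 cells implanted under the skin, and received 100 µg of rat IgG2a isotype antibody by intraperitoneal injection on days 6, 9 and 12, with tumours collected on day 14. The groups differed in the implanted cells, which were control or B2m-null. The genotype was assigned to the implanted cells as the series' design text does, although the sample labels attach it to the mouse. Ages, sexes and the method, clone number and position of the B2m lesion are not stated in the labels.

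Beta-2-microglobulin, the product of B2m, is the light chain of every classical MHC class I molecule and of most non-classical ones. Without it, class I heavy chains do not reach the cell surface in a stable form, so CD8 T cells cannot see peptides on the cell and inhibitory NK receptors lose their ligands. T cells and NK cells that are engaged secrete interferon-gamma, which acts through transcription factors such as IRF1 to raise class I genes, the immunoproteasome, guanylate-binding proteins and the chemokines CXCL9 and CXCL10 in tumour cells and myeloid cells.

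Cells were enriched with magnetic beads against CD45, so that tumour cells in the data were carried over. Each lane held tagged cells of the mice of 1 group, with 3 mice in replicate 1 and 2 mice in replicate 2 of each genotype (10 mice in all). The mouse was the unit of comparison, as the summed UMI counts of its cells of a class, wherever it gave at least 20 cells. Each lane held 1 genotype, so lane and genotype cannot be told apart within a replicate, and the p-values measure the spread between mice that shared lanes. Gene UMI totals per lane were 48719173 to 99264875, and 1324 to 5529 cells with 5225523 to 47277430 UMIs were assigned to each mouse. The first B2m-null lane stood apart: it had the lowest median depth (2302 UMIs per cell against 3048.5 to 5103) and the lowest share of cells assigned to a mouse (46.2% against 69.2% to 87.9%). Pairs of lanes shared 41 to 71 barcodes.

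Of 46157 barcodes not marked as hashtag doublets, clustering gave 24 clusters, of which 17 were named from markers and 7 stayed unnamed, among them 3 with joint T cell and myeloid transcripts. A class called "macrophage" and so on below is a macrophage-like class rebuilt here. The classes tested held 8403 control and 8488 B2m-null macrophages, 3388 and 3286 monocytes, 1231 and 452 CD8 T cells, 1328 and 757 NK cells, 587 and 682 cDC1, 757 and 937 cDC2, 528 and 650 mature dendritic cells, 365 and 622 plasmacytoid dendritic cells (pDC), and 351 and 466 melanoma-like cells. Within the melanoma-like class the melanosome protein gene Pmel reached 1826 and 1982 counts per 1000000 (CPM) in control and B2m-null cells, against 4.71 and 6.07 in all other classes.

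B2m (ENSMUSG00000060802) was first read in the melanoma-like cells, the class closest to the implanted cells. The 4 control mice with enough cells had 1624, 1704, 1339 and 1015 CPM and the 2 B2m-null mice had 421 and 257 CPM. All B2m-null values lay below all control values, with a difference of means of -1082 CPM (1421 ± 313 against 339 ± 116, SD), and the exact two-sided permutation test gave p = 0.133, the smallest p that 4 against 2 mice allow. With at least 10 cells per mouse, 5 control mice averaged 1530 ± 364 CPM and 3 B2m-null mice 371 ± 99.6 CPM (exact permutation p = 0.0357, again the smallest possible). By lane, B2m was at 1607 and 1090 CPM in control against 230 and 193 CPM in B2m-null melanoma-like cells, a log2 change of -2.68 ± 0.19 (SE, adjusted p = 0.000118, edgeR quasi-likelihood test with Benjamini-Hochberg adjustment over all genes). B2m counts were found in 96.7% and 92.3% of control and in 81.6% and 89.4% of B2m-null melanoma-like cells, by lane. The remaining counts can include transcripts of a disrupted gene, since counted 3' tags may lie outside the lesion, and RNA of other cells. In the same cells 17 interferon-gamma induced genes, not targeted, had log2 changes of -3.89 to -1.44, so the B2m level alone cannot check the labels. The hashtag antibodies bind CD45 and MHC class I. By lane, 48.1% and 38.1% of control against 77.1% and 80.1% of B2m-null melanoma-like cells could not be assigned to a mouse. Median hashtag counts over all melanoma-like cells were 381 and 182 in control and 273 and 155 in B2m-null lanes. In macrophages these medians were 532 and 386 against 302 and 400. The unassigned shares of macrophages were 14.4% and 3.15% in control against 43.4% and 12.2% in B2m-null lanes. Mice of the first B2m-null lane are thus known from fewer of their cells.

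In the immune cells, whose own B2m gene was intact by the design, the changes of B2m were negative and smaller, and called in 3 of 8 classes. B2m was called in macrophages (log2 change of -0.46, adjusted p = 0.0306), monocytes (-0.40, adjusted p = 0.0405) and cDC2 (-0.54, adjusted p = 0.00677). It was not called in cDC1, mature dendritic cells, pDC, CD8 T cells (-0.05, adjusted p = 0.909) or NK cells (-0.18, adjusted p = 0.715). B2m in macrophages was not called without the first control lane (-0.37, adjusted p = 0.271), without the second control lane (-0.51, adjusted p = 0.0546), without the first B2m-null lane (-0.40, adjusted p = 0.288) or with the hashtag ratio call (-0.37, adjusted p = 0.133). Without the first control lane neither B2m in monocytes (-0.36, adjusted p = 0.56) nor B2m in cDC2 (-0.51, adjusted p = 0.272) was called, and the same held with the lane as the unit (adjusted p = 0.603 and 0.266). In monocytes it was also not called with voom (adjusted p = 0.0588) or without the second control lane (adjusted p = 0.115).

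**Figure D1:**
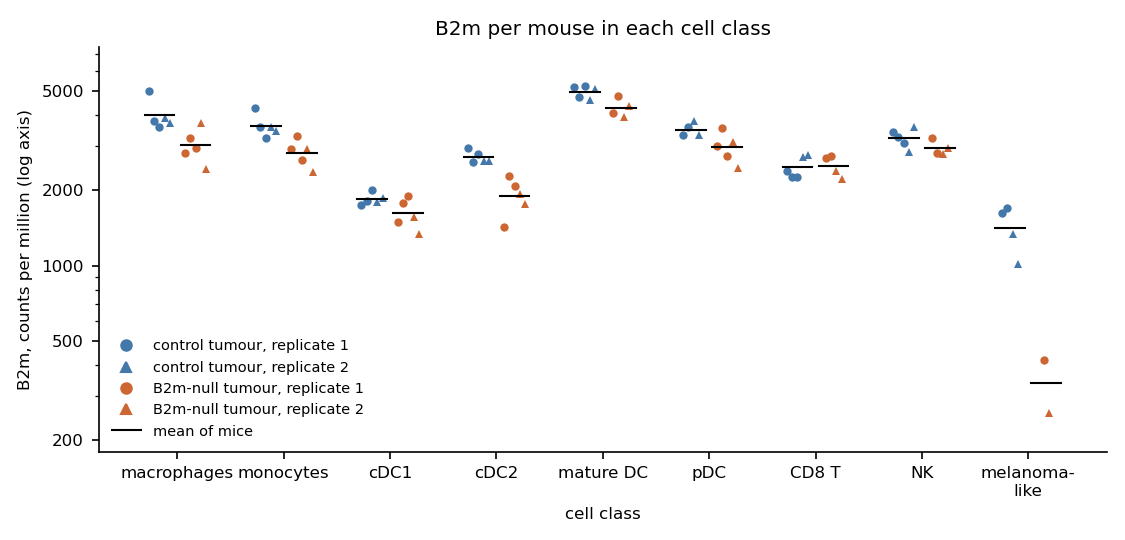
B2m in CPM (log axis) for each mouse in each cell class, with control mice in blue and B2m-null mice in orange, circles for replicate 1, triangles for replicate 2 and a line at the mean of mice. In melanoma-like cells the 2 B2m-null mice (421 and 257) sit below the 4 control mice, which span 1015 to 1704.

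In melanoma-like cells most tested genes of antigen presentation and of the interferon-gamma response were lower when the implanted cells lacked B2m, while pigment genes were not called. These cells were compared by lane (2 against 2), since many could not be assigned to a mouse, most of them in the B2m-null lanes. In all, 214 of 11194 genes passed the adjusted threshold of 0.05 (1.91%), 17 higher (0.152%) and 197 lower (1.76%). Values of the 2 groups did not overlap for 44.6% of all genes, so that non-overlap says little with 2 lanes a group. H2-K1, a classical class I heavy chain, was at 601 and 441 CPM in control and 155 and 122 CPM in B2m-null lanes (log2 change of -1.93 ± 0.17, adjusted p = 0.000395). H2-D1, the other heavy chain, went from 648 and 512 CPM to 157 and 153 CPM (-1.91 ± 0.14, adjusted p = 0.000118). In both heavy chain genes the 2 B2m-null lanes lay close together and well below the control lanes.

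Of 13 genes of peptide loading and the immunoproteasome, 11 were lower and none higher, with a median log2 change of -1.87 against 0.00 over all genes. The immunoproteasome subunit Psmb8 was at 184 and 89.8 CPM in control and 9.81 and 21.5 CPM in B2m-null lanes (-3.11 ± 0.37, adjusted p = 0.00224). Tap1, a chain of the peptide transporter, was at 98.6 and 59.3 against 19.6 and 22.3 CPM (-1.91 ± 0.23, adjusted p = 0.00224). The 2 members that were not called were the chaperones Calr (0.09, adjusted p = 0.814) and Pdia3 (0.15, adjusted p = 0.656). Of 17 tested interferon-gamma induced genes 13 were lower (median of -2.51). Gbp2, a guanylate-binding protein, fell from 187 and 156 CPM to 13.9 and 27 CPM (-3.05 ± 0.25, adjusted p = 0.000206).

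MHC class II presentation genes were lower as well (7 of 8 tested, median of -1.96), with H2-Aa at 211 and 190 CPM in control and 36.1 and 48.2 CPM in B2m-null lanes. The pigment genes Pmel (0.11, adjusted p = 0.795), Dct (0.31, adjusted p = 0.466), Tyrp1 (-0.12, adjusted p = 0.808) and Mlana (-0.16, adjusted p = 0.709) did not pass. Higher genes included Enah, an actin regulator (1.22), and Gsdmc, a gasdermin (1.00). Without the first B2m-null lane 620 genes were called and without the second 1281.

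RNA of other cells moved with these results. Summed macrophage markers in melanoma-like cells were 1235 to 1462 CPM in control and 842 to 929 CPM in B2m-null lanes (3 of 9 called lower). NK markers were 21.3 to 29.0 against 2.16 and 2.2 CPM (1 of 8 called), CD8 T markers 22.5 to 40.8 against 6.42 to 9.61 CPM (1 of 7) and red cell markers 58.9 to 128 against 0.981 to 1.69 CPM (3 of 4). Of 5 cytotoxic genes tested in these cells 4 were lower too (Gzma, Prf1, Nkg7 and Gzmb). The part of such RNA in the class II, interferon and cytotoxic changes was not tested.

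Macrophages, the largest class, carried the same groups of genes in the same direction. A total of 1526 of 11016 genes passed (13.9%), with 680 higher (6.17%) and 846 lower (7.68%) in B2m-null tumours, and the mice of the 2 groups did not overlap for 11.2% of genes. The number fell strongly without either first lane, each of which held 3 of the 5 mice of its group. There were 72 genes called without the first control lane and 201 without the first B2m-null lane. The loss of mice and the loss of the lane cannot be told apart in such fits. In the lists of values that follow, mice are in the order of replicate 1 mice 1, 2 and 3 and replicate 2 mice 1 and 2.

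Of 21 interferon-gamma induced genes 18 were tested in macrophages, 16 were lower and none higher, and in 11 of them every B2m-null mouse was below every control mouse. The median log2 change was -1.36, against 0.01 over all genes, and the summed level of the list was 2353 to 3776 CPM in control and 764 to 2039 CPM in B2m-null mice. Cxcl9, a ligand of the T cell and NK cell receptor CXCR3, was at 643, 487, 666, 635 and 444 CPM in control mice and 223, 74.0, 244, 343 and 109 CPM in B2m-null mice. Every control mouse was above every B2m-null mouse, with a log2 change of -1.58 ± 0.33 (575 ± 102 against 198 ± 108 CPM, n = 5 and 5, adjusted p = 0.00894).

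Cxcl10 (ENSMUSG00000034855), the other CXCR3 ligand tested here, was at 767, 661, 763, 375 and 495 CPM in control and 147, 190, 196, 286 and 138 CPM in B2m-null mice. The groups did not overlap (612 ± 173 against 191 ± 58.6 CPM, log2 change of -1.73 ± 0.23, adjusted p = 0.00117), and control replicate 2 was lower than control replicate 1. Irf1, the transcription factor that carries much of the interferon-gamma response, was at 155, 153, 134, 98.6 and 93.0 CPM in control and 41.9, 36.2, 53.0, 75.8 and 29.7 CPM in B2m-null mice. It also fell without overlap (-1.47 ± 0.24, adjusted p = 0.00324).

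Gbp4, a guanylate-binding protein, was at 124, 114, 116, 62.6 and 66.6 CPM in control and 20.6, 20.04, 32.3, 50.4 and 12.3 CPM in B2m-null mice (-1.89 ± 0.34, adjusted p = 0.00486). Its relative Gbp2b had the largest fall of the genes named by rule, from 27.4 ± 12.3 to 3.02 ± 2.27 CPM (-3.36 ± 0.50, adjusted p = 0.00193). Socs1, a feedback inhibitor of cytokine signalling, fell by 1.85 on the log2 scale (adjusted p = 0.00382). Cd274, which encodes the inhibitory ligand PD-L1, fell with overlap between the groups (-1.02, adjusted p = 0.0172), and B2m-null replicate 2 mouse 1 was the highest of its group. Of the 2 members that did not pass, the inducible nitric oxide synthase gene Nos2 had a log2 change of -1.48 ± 0.55 (adjusted p = 0.0877) and Irgm2 one of -0.46 (adjusted p = 0.225).

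The direction of this list held when lanes were left out, and the calls did not. All 18 genes had negative changes without the first control lane (median of -0.96) and without the first B2m-null lane (-1.15), but none passed in either case with edgeR. Within the 4 macrophage clusters taken separately (0, 1, 3 and 5), 16 of 17, 14 of 17, 6 of 15 and 12 of 17 tested members were called lower and none higher. Calls over all genes also differed between these fits, with fewer in cluster 3 than in clusters 1 and 5, so these counts cannot be compared between clusters. At Leiden resolution 2, finer macrophage clusters differed in share between the groups. One with Cxcl9 and Fcgr4 among its leading genes held 6.27% and 7.49% of control lanes against 1.84% and 1.46% of B2m-null lanes. Another, with Stab1 and Mrc1, held 1.61% and 3.25% against 7.19% and 6.59%. Their part in the changes within clusters was not tested.

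**Figure D2:**
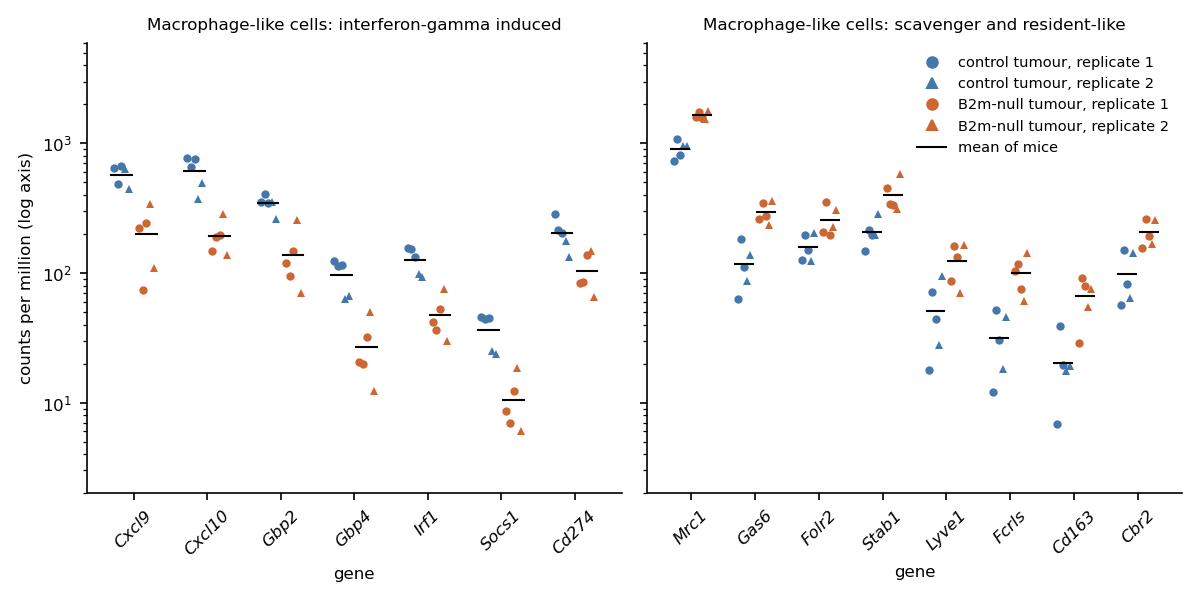
CPM (log axis) of interferon-gamma induced genes (left) and scavenger or resident-like genes (right) in macrophages for each mouse, control in blue and B2m-null in orange, with circles for replicate 1, triangles for replicate 2 and a line at the mean of mice. Control mice are higher on the left (Cxcl10 138 to 286 in B2m-null mice against 375 to 767) and B2m-null mice are higher on the right (Mrc1 1550 to 1788 against 736 to 1082).

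Because these genes moved together, their promoters are shown. Windows of 250 bases before to 50 bases after each RefSeq start site (build GRCm38.p6) were searched on both strands for TTTC, any 2 bases and TTTC again, a short form of the interferon-stimulated response element, and TTCNNNGAA, the core of the gamma-activated site. The first was present for 3.99% and the second for 9.55% of all 27025 genes with a window. Of 14 interferon-gamma induced genes with a window, 11 held the first (78.6%) and 7 the second (50%), as a description of sequence alone. Of the 12 scavenger and resident-like genes with a window, described further on, 1 held the first and none the second. The bases before the start site of 3 members of the interferon-gamma list and of B2m, which is not on it, follow, 5′ to 3′ on the gene's strand, with matches in capitals: Cxcl10 on the minus strand (chr5:92348890-92349139), Igtp on the plus strand (chr11:58199306-58199555), Irf1 on the plus strand (chr11:53769764-53770013) and B2m on the plus strand (chr2:122147437-122147686).
Cxcl10: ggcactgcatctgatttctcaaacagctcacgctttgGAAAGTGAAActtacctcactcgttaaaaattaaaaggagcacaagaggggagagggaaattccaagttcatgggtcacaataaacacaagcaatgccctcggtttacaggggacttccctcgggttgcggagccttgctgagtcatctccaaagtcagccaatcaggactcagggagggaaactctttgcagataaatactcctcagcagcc
Igtp: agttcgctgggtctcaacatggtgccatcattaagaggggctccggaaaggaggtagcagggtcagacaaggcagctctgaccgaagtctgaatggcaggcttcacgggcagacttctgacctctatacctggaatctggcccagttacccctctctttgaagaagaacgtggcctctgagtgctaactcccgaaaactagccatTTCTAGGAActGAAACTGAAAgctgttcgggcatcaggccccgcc
Irf1: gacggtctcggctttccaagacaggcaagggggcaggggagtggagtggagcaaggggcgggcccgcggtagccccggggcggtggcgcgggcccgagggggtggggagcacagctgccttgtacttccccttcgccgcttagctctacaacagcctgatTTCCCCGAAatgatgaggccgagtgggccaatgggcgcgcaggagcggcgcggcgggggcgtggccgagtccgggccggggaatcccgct
B2m: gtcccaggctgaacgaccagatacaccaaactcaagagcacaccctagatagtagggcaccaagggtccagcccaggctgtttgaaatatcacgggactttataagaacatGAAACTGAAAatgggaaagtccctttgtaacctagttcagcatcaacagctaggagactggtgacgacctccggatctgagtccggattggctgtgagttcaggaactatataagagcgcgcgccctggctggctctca
Cxcl10 and B2m held the first motif, Irf1 the second, and Igtp, an interferon-induced GTPase gene, both. A second Irf1 start site had a window (chr11:53770223-53770472 before the start) with neither motif in those bases. Igtp itself was at 80.2, 85.1, 72.7, 52.5 and 55.7 CPM in control macrophages and 25.4, 30.3, 27.9, 44.3 and 20.8 CPM in B2m-null ones, again without overlap (-1.26 ± 0.20, adjusted p = 0.00287). A match does not show that a factor binds there.

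Transcripts of antigen presentation genes were lower in macrophages, whose own genes were not altered by the design. All 3 classical class I genes were lower (median of -0.58), 6 of 7 non-classical ones (median of -0.78) and 10 of 13 of peptide loading and the immunoproteasome (median of -0.73). Without the first control lane 0, 1 and 1 of these were called lower, and without the first B2m-null lane again 0, 1 and 1 (edgeR), with all 3 classical genes negative in both cases (medians of -0.50 and -0.46). Of the 24 macrophage genes with the largest changes and no overlap of mice, 7 were still called without the first control lane and 10 without the first B2m-null lane. H2-D1 was at 2226, 1863, 1994, 1874 and 2105 CPM in control and 1335, 1454, 1243, 1548 and 1418 CPM in B2m-null mice, with no overlap and a log2 change of -0.58 ± 0.08 (adjusted p = 0.00177). Psmb8 was at 468, 423, 504, 401 and 377 CPM in control and 180, 168, 193, 268 and 206 CPM in B2m-null mice (-1.14 ± 0.13, adjusted p = 0.000818). Its means were 435 ± 51.3 and 203 ± 38.8 CPM, with no overlap of mice. In all, 8 of 11 MHC class II presentation genes were lower (median of -0.80), and none was called without the first control lane or without the first B2m-null lane (edgeR, medians of -0.64 and -0.69). Summed cDC1 markers in macrophages were 412 to 567 CPM in control and 242 to 476 CPM in B2m-null mice (3 of 7 called lower). Those of cDC2 were 310 to 528 against 276 to 754 CPM (1 of 7 called higher and 1 lower). Of CD4 T markers 1 of 7 and of regulatory T markers 1 of 6 were called higher. The part of such RNA in the class II fall was not tested. H2-Eb1, a class II beta chain, was at 1380, 1298, 1062, 1043 and 925 CPM in control and 367, 669, 523, 854 and 463 CPM in B2m-null mice (-1.04 ± 0.20, adjusted p = 0.00615). Ciita, the master regulator of class II genes, was lower by call (-0.83, adjusted p = 0.0367).

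Type I interferon induced genes were lower for 15 of 23 tested (median of -0.78), and none was called without the first control lane or without the first B2m-null lane (edgeR, medians of -0.45 and -0.72). Isg15, a ubiquitin-like modifier, had a log2 change of -1.36 (adjusted p = 0.00467). Among cytokines, 3 of 11 were lower: Il27 (-1.64, adjusted p = 0.000853), Il1b (-1.10, adjusted p = 0.0179) and Tnf (-1.08, adjusted p = 0.00272). Among 14 monocyte and T cell chemokines 6 were lower and 2 higher. Ccl5, a chemokine that attracts T cells and monocytes, was lower (-1.28, adjusted p = 0.00344), while Ccl24, an eotaxin, was higher (1.74, adjusted p = 0.0263) with 37.0, 69.3, 23.9, 23.5 and 26.8 CPM in control and 42.6, 65.7, 220, 214 and 70.0 CPM in B2m-null mice. The Ccl24 groups overlapped, and 2 B2m-null mice, 1 in each lane, were far above the rest.

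Acod1, the enzyme that makes itaconate in activated macrophages, was at 85.5, 68.6, 102, 64.8 and 54.4 CPM in control and 9.86, 14.5, 23.2, 38.3 and 8.70 CPM in B2m-null mice. The groups did not overlap (75.1 ± 18.9 against 18.9 ± 12.2 CPM, log2 change of -2.06 ± 0.36, adjusted p = 0.00413). The other genes with the largest falls by rule were Klrk1, the NKG2D receptor gene (-2.07), Serpina3g, an interferon-induced protease inhibitor (-1.91), Slco3a1 (-1.75), AW112010 (-1.71), Cd300e, an activating myeloid receptor (-1.59), and Calhm6 (-1.52). Klrk1 is on the NK receptor list, of which 3 of 6 tested genes were lower in macrophages, as were 2 of 5 cytotoxic genes (7.68% of all genes were lower). Summed NK markers in macrophages were 5.17 to 27.7 CPM in control and 7.40 to 21.8 CPM in B2m-null mice (0 of 8 called by edgeR). The part of lymphocyte RNA in these falls was not tested.

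The genes that rose in macrophages included nearly the whole list of scavenger and resident-like genes. Of its members 12 of 13 were higher and none lower (median of 0.92), and in 9 of them the groups did not overlap. Their summed level was 3455 to 5589 CPM in control and 8469 to 10367 CPM in B2m-null mice. Mrc1, the mannose receptor CD206, was at 736, 1082, 820, 956 and 947 CPM in control and 1598, 1744, 1561, 1550 and 1788 CPM in B2m-null mice. No value overlapped and the spread in each group was small (908 ± 134 against 1648 ± 110 CPM, log2 change of 0.81 ± 0.09, adjusted p = 0.000818). Mrc1 also served as 1 of the markers that named the class, in both groups.

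Gas6, a bridge between dying cells and the receptors that take them up, was at 62.7, 183, 111, 87.3 and 138 CPM in control and 262, 347, 274, 237 and 358 CPM in B2m-null mice (1.29 ± 0.22, adjusted p = 0.00366). Cd163, the haemoglobin scavenger receptor, was at 6.81, 38.9, 19.6, 17.4 and 19.2 CPM in control and 28.9, 92.1, 79.8, 54.7 and 74.7 CPM in B2m-null mice (1.60 ± 0.33, adjusted p = 0.00862). Gas6 did not overlap, and Cd163 did, through the second mouse of control replicate 1 and the first of B2m-null replicate 1. Lyve1, a hyaluronan receptor of perivascular macrophages (1.20, adjusted p = 0.039), Fcrls (1.60, adjusted p = 0.00695) and Folr2, a folate receptor (0.64, adjusted p = 0.0291), were higher as well. Timd4, a phosphatidylserine receptor, was the member that did not pass (0.67, adjusted p = 0.479).

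Outside the list, the largest rises without overlap of mice included Gja1, the gap junction protein connexin 43 (6.52 ± 2.62 against 27.6 ± 9.17 CPM, 2.04 ± 0.25, adjusted p = 0.000818), and Slc40a1, the iron exporter ferroportin. Slc40a1 was at 6.51, 39.4, 27.5, 65.2 and 25.9 CPM in control and 130, 83.8, 107, 95.8 and 131 CPM in B2m-null mice (1.61 ± 0.34, adjusted p = 0.00935). Reps2 (1.43), the organic anion transporter Slco2b1 (1.41), the sphingosine phosphate receptor S1pr1 (1.38), the sialyltransferase St6gal1 (1.28), Fxyd2 (1.26), the insulin-like growth factor binding protein Igfbp4 (1.25), Stard8 (1.14) and Megf9 (1.12) completed the rule's list.

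The scavenger group was also read within each macrophage cluster, with differences between clusters not tested. Within cluster 0, 12 of 12 tested members were higher, within cluster 1 9 of 12 and within cluster 5 6 of 10. Within cluster 3, whose leading genes included Folr2 and Lyve1, 2 of 13 were, with 3 below zero and a median of 0.34. Over all genes, too, fewer were called within cluster 3 than within clusters 1 and 5, so the counts of members cannot be compared between clusters. Cluster 3 held 14.2% and 12.1% of the macrophages of the control lanes and 28.1% and 21.2% of those of the B2m-null lanes, and cluster 1 held 35.6% and 27.0% against 18.8% and 23.6%. The clusters were formed on the expression of these cells, and the scavenger genes were not kept out. The shares and the counts of members within clusters are thus descriptions. The part of the shares in the rise of the class was not tested. Without the first control lane 4 of 13 members were called higher, and without the first B2m-null lane 6, with no member negative. Summed platelet markers, of which Pf4 is 1, were 1236 to 2068 CPM in control and 3356 to 3889 CPM in B2m-null macrophages (2 of 5 called higher, Gp1bb at 0). Whether RNA from platelets took part was not tested. Lipid-associated macrophage genes (1 of 14 called, Ctsd, higher), the cell cycle list (0 of 20 by edgeR) and the arginase gene Arg1 (0.15, adjusted p = 0.79) gave no further calls.

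In monocytes 245 of 7787 genes were called (3.15%), 68 higher (0.873%) and 177 lower (2.27%), and the mice of the groups did not overlap for 4.93% of genes. The class was clusters 2 and 4, which were not tested apart. Cluster 4 had a marker score of 1.52 for monocytes against 1.31 for cDC2, and its leading genes included H2-Ab1, H2-Eb1 and Cd74. It held 44.3% and 51.3% of the monocytes of the control lanes and 41.9% and 49.9% of those of the B2m-null lanes. Of 16 interferon-gamma induced genes tested 15 were lower (median of -1.16), as were 12 of 22 type I interferon genes and 7 of 13 of peptide loading and the immunoproteasome. Cxcl10 was at 1605, 1872, 1906, 1043 and 1767 CPM in control and 786, 557, 783, 582 and 428 CPM in B2m-null mice, with no overlap (1638 ± 353 against 627 ± 155 CPM, log2 change of -1.45 ± 0.17, adjusted p = 0.000109). Acod1 fell further (109 ± 24.6 against 29.05 ± 9.76 CPM, -1.97). The DNA-sensing family gene Ifi205 (-1.48), the GTPase gene Iigp1 (-1.48) and Calhm6 (-1.43) were also lower. None of 9 MHC class II genes tested in monocytes passed with edgeR (median of -0.01), where 8 of 11 did in macrophages, and whether the 2 classes differ was not tested.

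Of 10 scavenger and resident-like genes tested in monocytes 3 were called higher, and all 10 changes were positive (median of 0.77). The changes of the tested members were also positive in pDC (7 of 7, 3 called), cDC1 (3 of 3, 1 called), cDC2 (4 of 4, 2 called), mature dendritic cells (2 of 2), CD8 T cells (3 of 3) and NK cells (3 of 3), the last 3 classes with none called by edgeR. Whether these changes differ from those in macrophages was not tested, and the classes share their mice and lanes. Mrc1 was higher in monocytes (392, 383, 242, 362 and 287 CPM in control, 658, 687, 748, 611 and 538 CPM in B2m-null mice, 0.91, adjusted p = 0.000908), without overlap. Cd209a, a lectin of monocyte-derived and type 2 dendritic cells (1.26), Ear2, an eosinophil-associated ribonuclease (1.18), and Cd24a (1.14) followed. Summed cDC2 markers in monocytes were 411 to 545 CPM in control and 484 to 1008 CPM in B2m-null mice (1 of 7 called higher), macrophage markers, which include Mrc1, 3980 to 5155 against 2994 to 5798 CPM (1 of 9 higher, 2 lower), and platelet markers 69.6 to 208 against 170 to 419 CPM (1 of 5 higher). Their part in these rises was not tested. Most monocyte interferon calls were lost without the first control lane, which held 3 of the 5 control mice. Without it 3 of 16 tested were called (all negative, median of -1.02), and with the lane as the unit 4 of 18.

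Type 2 conventional dendritic cells (cDC2), which present antigen mainly to CD4 T cells, had 150 of 5433 genes called (2.76%), 39 higher (0.718%) and 111 lower (2.04%), with no overlap of mice for 3.96% of genes. Of 15 interferon-gamma induced genes 14 were lower (median of -1.38), of 22 type I interferon genes 12 (median of -1.15), and all 3 classical class I genes. None of the 3 was called without the first control lane or with the lane as the unit (edgeR), and 1 was without the second control lane, with all 3 negative in each case. Iigp1 was at 160, 167, 304, 211 and 197 CPM in control and 27.8, 35.4, 71.4, 53.9 and 22.6 CPM in B2m-null mice, with no overlap (-2.42 ± 0.25, adjusted p = 3.2e-06). Ly6a, the Sca-1 surface protein that interferons raise, was at 1379 ± 129 against 372 ± 123 CPM (-1.94 ± 0.15, adjusted p = 4.08e-08). Gm4951, Calhm6 and Isg15 were lower too (-2.86, -2.10 and -1.76). None of 11 MHC class II genes was called by edgeR (median of -0.01). Pf4 (25.2 ± 4.91 against 97.8 ± 4.73 CPM, 1.85 ± 0.19), the semaphorin co-receptor Nrp2 (1.38) and Mrc1 (0.88) were higher. Summed macrophage markers in cDC2 were 411 to 1185 CPM in control and 625 to 1081 CPM in B2m-null mice (1 of 9 called), and platelet markers 20.9 to 35.3 against 96.9 to 139 CPM. Monocyte markers were 2103 to 3425 against 1372 to 2785 CPM (1 of 7 called lower), mature dendritic cell markers 134 to 304 against 163 to 375 CPM (1 of 8 lower) and endothelial markers 69.3 to 109 against 32.7 to 102 CPM (1 of 6 lower). The part of these markers in the rises and falls was not tested. Without the first control lane 7 of 15 interferon-gamma genes were called. Over all genes 197 were called without the first B2m-null lane, and 9 of the 12 cDC2 genes with the largest changes and no overlap of mice were still called.

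The other dendritic cells had few called genes. Type 1 conventional dendritic cells (cDC1), which cross-present antigen to CD8 T cells, had 31 of 5446 (0.569%), 21 higher (0.386%) and 10 lower (0.184%), with no overlap of mice for 2.99% of genes. Of 12 interferon-gamma induced genes 2 were called lower, Cxcl10 (82.2 ± 53.2 against 13.2 ± 17.7 CPM, -2.25, adjusted p = 0.0215) and Irgm1 (-1.04, adjusted p = 0.0499), with a median of -0.93 over the 12. H2-D1 fell without overlap (1506 ± 120 against 1106 ± 54.7 CPM, -0.45, adjusted p = 0.0303). Crem, a cyclic AMP responsive repressor gene, was higher in every B2m-null mouse (24.2, 29.7, 26.7, 28.6 and 19.96 CPM in control, 105, 60.6, 82.7, 57.9 and 73.1 CPM in B2m-null, 1.42 ± 0.22, adjusted p = 0.00218), as was the surface protein gene Plet1 (1.36, adjusted p = 0.0103). Summed macrophage markers in cDC1 were 145 to 271 CPM in control and 171 to 469 CPM in B2m-null mice (1 of 9 called higher), and platelet markers 4.85 to 36.2 against 39.4 to 74.5 CPM (1 of 5 higher). Their part in the rises was not tested. A total of 2 genes were called without the first control lane, among them Plet1 in cDC1 (adjusted p = 0.0431), whereas Crem in cDC1 (adjusted p = 0.0675), H2-D1 in cDC1 (0.653) and Irgm1 in cDC1 (0.455) were not called. Without mouse 3 of control replicate 1 7 genes were called, and without the first B2m-null lane 36. Of the 11 cDC1 genes with the largest changes and no overlap of mice, 1 was still called without the first control lane and 6 without the first B2m-null lane.

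Mature dendritic cells, the Ccr7-bearing state that migrates to lymph nodes, had 27 of 4323 genes called (0.625%), 13 higher (0.301%) and 14 lower (0.324%), in 5 control and 4 B2m-null mice (B2m-null replicate 1 mouse 3 had 19 cells and was left out), and the mice did not overlap for 4.4% of genes. Cxcl9 (265 ± 127 against 72.0 ± 54.7 CPM, -1.69, adjusted p = 0.0197), Cxcl10 (-1.84, adjusted p = 0.0421) and Irgm1 (-1.27, adjusted p = 0.0421) were lower among 13 interferon-gamma genes, and Oasl1 (-1.92), Irf7, Isg15 (-1.13) and Ifi204 among 11 type I genes. Irf8, a dendritic cell transcription factor, was lower without overlap (967 ± 187 against 450 ± 198 CPM, -0.99, adjusted p = 0.0175). Of 16 maturation and costimulation genes none was called by edgeR (median of 0.00). Summed regulatory T markers in these cells were 247 to 355 CPM in control and 326 to 567 CPM in B2m-null mice (1 of 6 called higher). Macrophage markers were 263 to 555 against 247 to 457 CPM (0 of 9 called by edgeR). Their part in the changes of the class was not tested. No gene was called without the first control lane by edgeR (291 at an unadjusted p under 0.05). Without the first B2m-null lane 27 were called, and 6 of the 12 genes with the largest changes and no overlap of mice were still called.

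In pDC, the main interferon-alpha producers, 29 of 4692 genes were called (0.618%), 17 higher (0.362%) and 12 lower (0.256%), in 4 control and 5 B2m-null mice (control replicate 1 mouse 1 had 15 cells and was left out), and the mice did not overlap for 3.62% of genes. Iigp1 (161 ± 52.6 against 70.3 ± 16.3 CPM, -1.15, adjusted p = 0.0312), the interferon regulator Irf7 (-0.87, adjusted p = 0.0498), Psmb8 (-0.76, adjusted p = 0.0312), H2-Q7 (-0.86) and H2-D1 (-0.51, adjusted p = 0.0312) were lower. Ccl22, a ligand of CCR4, fell (75.5 ± 21.3 against 9.09 ± 6.93 CPM, -2.64, adjusted p = 0.0188). Ccl22 is also a mature dendritic cell marker, and the summed markers of those cells in pDC were 134 to 476 CPM in control and 48.6 to 355 CPM in B2m-null mice (1 of 8 called lower). Higher genes included those of macrophages, Gas6 (2.23), Fn1 (1.66) and Ccl24 (11 counts in control and 202 in B2m-null mice). Summed macrophage markers in pDC were 1701 to 3928 CPM in control and 2028 to 5751 CPM in B2m-null mice (0 of 9 called by edgeR), and their part in these rises was not tested. The number of calls changed when lanes or mice were left out, and such fits also had fewer mice. There were 7 genes called without the first B2m-null lane and none without the first control lane (edgeR, 334 at an unadjusted p under 0.05). Without mouse 2 of control replicate 1 a single gene was called. Of the 12 pDC genes with the largest changes and no overlap of mice, 2 were still called without the second control lane. Only 1 was still called without mouse 2 of control replicate 1, and 1 without mouse 2 of B2m-null replicate 2.

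**Figure D3:**
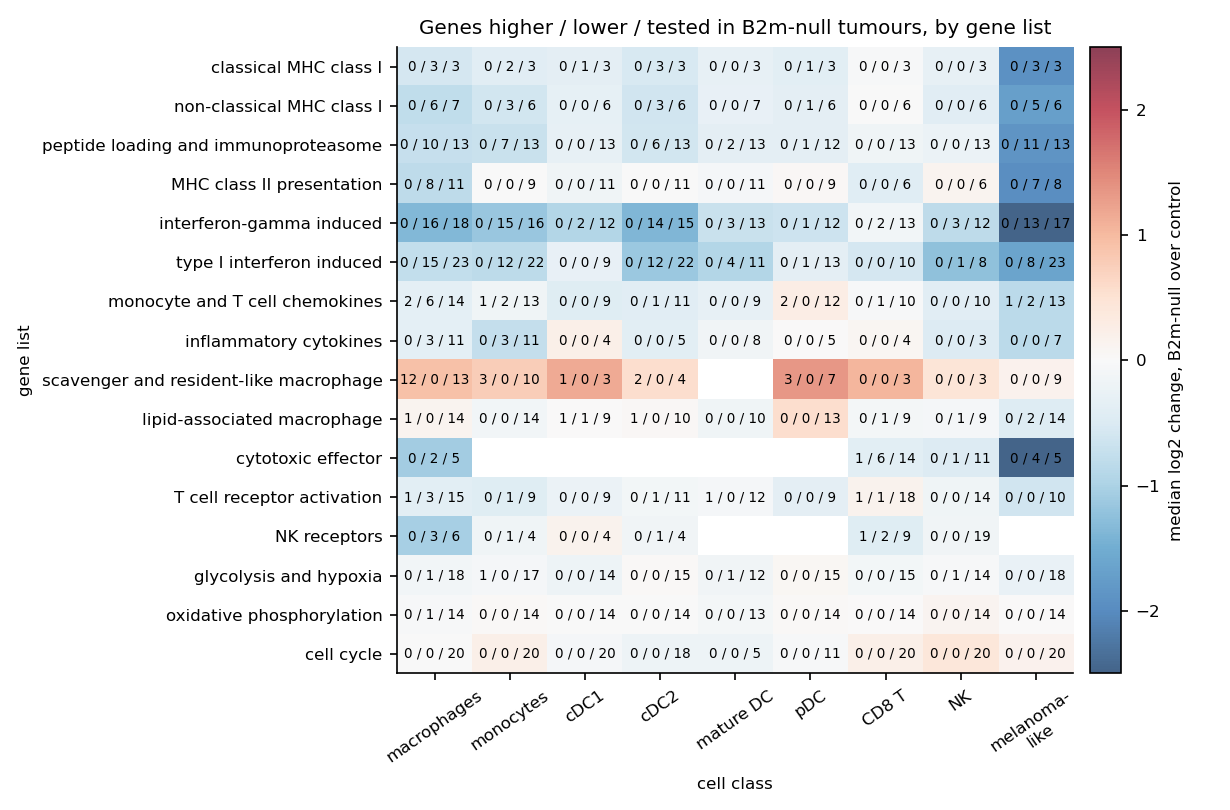
Each cell gives the genes called higher, called lower and tested of 1 gene list in 1 cell class, and its colour the median log2 change, B2m-null over control (blue lower, red higher). Interferon-gamma induced genes read 0 / 16 / 18 in macrophages, 0 / 15 / 16 in monocytes and 0 / 2 / 13 in CD8 T cells, and blank cells had fewer than 3 genes tested.

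CD8 T cells showed lower cytotoxic granule genes and higher Gzmk in B2m-null tumours. Of 7775 genes 85 were called (1.09%), 33 higher (0.424%) and 52 lower (0.669%), in 5 control mice (144 to 269 cells) and 4 B2m-null mice (37 to 150 cells), with B2m-null replicate 1 mouse 2 left out for having 10 cells. Of 14 cytotoxic effector genes 6 were lower and 1 was higher (median of -0.39, against -0.01 over all genes). Values for B2m-null mice are in the order of replicate 1 mice 1 and 3 and replicate 2 mice 1 and 2.

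Gzmb, the main granzyme of killer cells, was at 1740, 1650, 2596, 2100 and 1984 CPM in control and 569, 1596, 1100 and 752 CPM in B2m-null mice. Every B2m-null mouse was below every control mouse, the nearest being replicate 1 mouse 3 (2014 ± 372 against 1004 ± 451 CPM, log2 change of -1.05 ± 0.19, adjusted p = 0.00389). Prf1, which encodes the pore protein perforin, was at 520, 344, 786, 884 and 703 CPM in control and 306, 154, 170 and 222 CPM in B2m-null mice, also without overlap (-1.75 ± 0.23, adjusted p = 0.000212). Gzmc, of a granzyme cluster next to Gzmb that strongly stimulated T cells express, was at 652, 901, 953, 969 and 1146 CPM in control and 105, 202, 164 and 31.7 CPM in B2m-null mice (-2.85 ± 0.24, adjusted p = 5.71e-08).

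A further 3 genes of that cluster were nearly absent from most B2m-null mice. Gzmd was at 60.3, 64.1, 178, 169 and 44.4 CPM in control and 10.5, 0, 0 and 0 CPM in B2m-null mice, which is 605 against 1 count, a ratio per total count of 167 (95% counting interval 29.9 to 6608, adjusted p = 0.000212). Gzmf was at 352, 85.0, 823, 510 and 79.2 CPM in control and 127, 0, 0.910 and 0 CPM in B2m-null mice (2227 against 13 counts), and Gzme at 68.9, 33.4, 190, 186 and 64.4 against 52.7, 0, 2.73 and 0 CPM (650 against 8 counts). Both were called (adjusted p = 0.00229 for each), yet the groups overlapped, because B2m-null replicate 1 mouse 1 was within the control range. These granzymes are close relatives, and reads shared between them could be split by the counting. Serpinb9b, of the family of granzyme B inhibitors, was lower too (505 against 5 counts, -4.70 ± 0.65, adjusted p = 0.000212).

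Gzmk, a granzyme of memory-like effector cells, was the member that rose: it was at 54.0, 75.2, 46.7, 51.7 and 124 CPM in control and 116, 154, 213 and 172 CPM in B2m-null mice (1.37 ± 0.23, adjusted p = 0.00197). Only the second mouse of control replicate 2 reached the B2m-null range. Cd69, an early activation and retention marker, was higher (0.80, adjusted p = 0.0218) and Tnfrsf9, the costimulator 4-1BB that antigen contact induces, was lower (418 ± 70.4 against 235 ± 72.6 CPM, -0.93, adjusted p = 0.00531). They were the 2 of 18 T cell receptor activation genes that were called (median of 0.15). The transcription factor gene Maf was higher without overlap (23.9 ± 8.38 against 68.2 ± 36.7 CPM, 1.23).

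Of 10 inhibitory receptor and exhaustion genes 1, Lag3, was lower (-0.87, adjusted p = 0.021), whereas Pdcd1, which encodes PD-1 (-0.23, adjusted p = 0.494), and Tox (-0.28, adjusted p = 0.495) did not pass. The paired NK-type receptor genes Klrc1 (-0.77, adjusted p = 0.0434) and Klrd1 (-0.67, adjusted p = 0.0394), whose products form the CD94-NKG2A receptor for a class I ligand, were lower. Neither was called with the lane as the unit (adjusted p = 0.101 and 0.117), with voom (0.122 and 0.0759), or in 7 of the 9 fits that left out 1 mouse. Klra7, a Ly49 receptor, was higher (2.15, adjusted p = 0.0099, 43 and 61 counts). It was not called with voom (2.60, adjusted p = 0.0683), without B2m-null replicate 2 (0.10, adjusted p = 0.986) or without mouse 1 of that replicate (0.95, adjusted p = 0.675). Nkg7, a granule protein, did not pass (-0.46, adjusted p = 0.0666) although the groups did not overlap, as they did not for 6.29% of all genes. Ifng, the source of interferon-gamma, was at 456, 309, 544, 349 and 430 CPM in control and 327, 211, 234 and 2810 CPM in B2m-null mice (1.11 ± 0.45, adjusted p = 0.241). B2m-null replicate 2 mouse 2, with 42 cells, stood far above all others for Ifng, and of the other 3 B2m-null mice 1 lay within the control range and 2 below it.

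Of 13 interferon-gamma induced genes tested in CD8 T cells 2 were called lower, Cxcl10 (-2.38, adjusted p = 0.00531) and Gbp6, with 8 of 13 negative and a median of -0.13. Whether this differs from the myeloid classes was not tested. Their class I genes were not called (H2-K1 0.01, H2-D1 -0.19, adjusted p = 0.556 for the latter). Summed macrophage markers were 126 to 237 CPM in control and 159 to 283 CPM in B2m-null CD8 T cells (0 of 9 called by edgeR). Other markers did move: 2 of 8 NK markers were called higher (272 to 723 against 267 to 703 CPM), 1 of 7 CD4 T markers lower (3328 to 3925 against 2146 to 3662 CPM), 1 of 5 non-classical monocyte markers lower (197 to 291 against 138 to 211 CPM), and of 7 monocyte markers 1 higher and 1 lower (933 to 1800 against 712 to 1076 CPM). Their part in the CD8 T cell results was not tested. Cluster 6, led by T cell genes, stayed unnamed because Cd8a was detected in under 25% of its cells. T cell and myeloid transcripts occurred together in 2.93% of its cells. With cluster 6 added, an alternative chosen after seeing the data, 63 genes were called. Of 14 cytotoxic genes 6 were then lower and none higher, so that Gzmk was no longer called. Gzmk was also not called without B2m-null replicate 2 (0.88, adjusted p = 0.358) or without its mouse 1 (1.11, adjusted p = 0.11), and the cytotoxic genes called lower were then 4 of 14 in both cases, as with voom and DESeq2. Without the first B2m-null lane 74 genes were called and without the second 199.

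**Figure D4:**
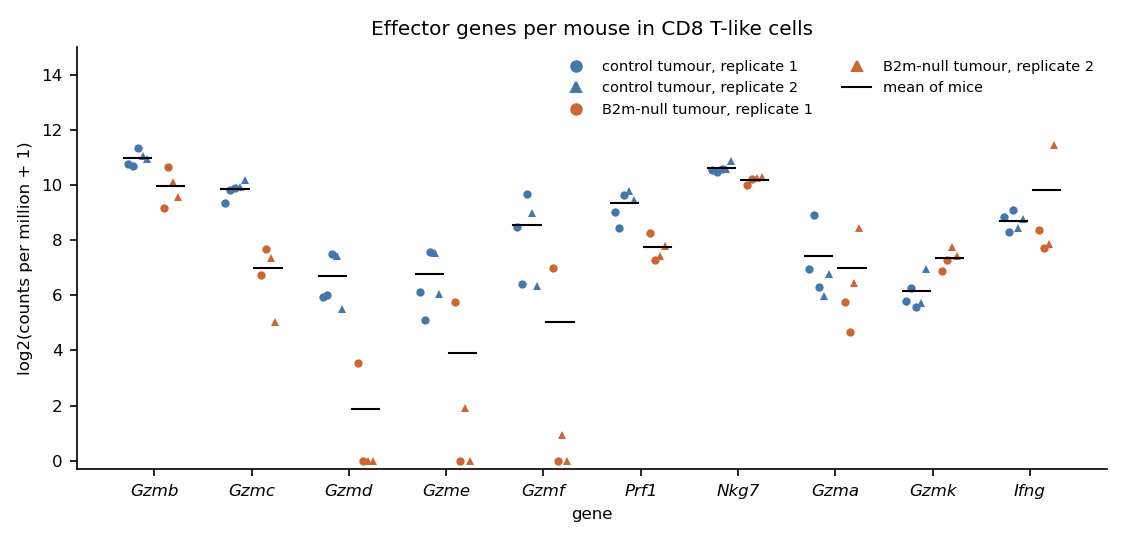
Effector genes in CD8 T cells as log2(CPM + 1) for each mouse, control in blue and B2m-null in orange, with circles for replicate 1, triangles for replicate 2 and a line at the log of the mean of mice. Gzmc, Gzmd and Prf1 of B2m-null mice lie below all control mice, Gzmk lies mostly above, and 1 B2m-null mouse is highest for Ifng (2810 CPM).

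NK cells, which class I loss on a target releases from inhibition, had 25 of 5303 genes called (0.471%), 10 higher (0.189%) and 15 lower (0.283%), in 5 control and 4 B2m-null mice (B2m-null replicate 1 mouse 1 had 19 cells and was left out). Gzma, an abundant NK granzyme, was at 3544, 4906, 3499, 4481 and 4492 CPM in control and 2618, 2684, 2055 and 3208 CPM in B2m-null mice. It was lower without overlap (4184 ± 629 against 2641 ± 472 CPM, -0.71 ± 0.15, adjusted p = 0.0286), and it was the 1 called of 11 cytotoxic genes. With cells thinned to 2000 UMIs, which left out 81.4% of control and 68.3% of B2m-null NK cells, its log2 change was 0.000367. Gzma in NK cells was also not called without the first control lane (-0.84, adjusted p = 0.481), without the second control lane (-0.62, adjusted p = 0.142), with the lane as the unit (adjusted p = 0.642), with the strict cell limits (adjusted p = 0.156), with the hashtag ratio call (adjusted p = 0.227) or in 5 of the 9 fits that left out 1 mouse. Gzmb (1062 ± 170 against 1010 ± 651 CPM) and Prf1 (512 ± 114 against 455 ± 109 CPM, -0.18, adjusted p = 0.792) did not pass.

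Ifng in NK cells was at 195, 229, 175, 127 and 193 CPM in control and 86.2, 106, 112 and 121 CPM in B2m-null mice. The groups did not overlap, as for 3.45% of all genes, but the adjusted p was 0.109 (-0.73 ± 0.20). Of 12 interferon-gamma induced genes 3 were lower (median of -0.80): Cxcl10 (-2.65, adjusted p = 0.00557), Gbp2 (-1.30, adjusted p = 0.0452) and Irf1 (-0.87, adjusted p = 0.0452). Zbp1, a nucleic acid sensor (-1.23, adjusted p = 0.0286), and Socs3, a cytokine feedback inhibitor (-1.16, adjusted p = 0.0452), were lower as well. None of 19 NK receptor genes was called by edgeR (median of -0.14). Among them Klra8, an activating Ly49 receptor, had a log2 change of -0.27 ± 0.18, Klra4, another activating Ly49 receptor, one of -0.21 ± 0.17 and the activating receptor gene Ncr1 one of -0.39 ± 0.17. Summed macrophage markers in NK cells were 360 to 579 CPM in control and 314 to 903 CPM in B2m-null mice (0 of 9 called). A single gene was called without the first control lane, and 111 without the second B2m-null lane. Without the first B2m-null lane 31 were called, and 8 of the 12 NK genes with the largest changes and no overlap of mice were still called. Of these 12, 1 was still called without the first control lane, 5 without the second control lane and 2 without the second B2m-null lane. With the replicate block 3 were, with the lane as the unit 2 and with the hashtag ratio call 0 (edgeR).

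The classes come from the same mice, so their changes are not independent, and the counts that follow are descriptions. In all, 8 genes were called lower in at least 5 of the 8 immune classes: Cxcl10 in 7, Ly6a in 6, and H2-D1, Irf7, Irf8, Irgm1, Psmb8 and Zbp1 in 5. Another 11 were called higher in at least 5 classes, of which 9 encode cytosolic ribosomal proteins and 1, Mrpl52, a mitochondrial ribosomal protein. Rpl37a, Rpl41 and Rps28 were called in all 8. In macrophages Rpl37a was at 1443, 1671, 1400, 1744 and 1561 CPM in control and 2207, 2865, 2735, 2680 and 2237 CPM in B2m-null mice (0.65 ± 0.09, adjusted p = 0.00177). Rplp2 and Rps26 were called in 5 classes, and Rpl39 and Rps15 in 3. Rpl37a had log2 changes of 0.65 to 0.89 over the 8 classes and 0.55 (adjusted p = 0.0959) in melanoma-like cells. Lane and genotype cannot be told apart for these genes.

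Shares of cell classes were compared as percentages of each mouse's haematopoietic cells, and none of 10 classes passed (exact two-sided permutation tests, smallest possible p = 0.00794, lowest adjusted p = 0.198). With the hashtag ratio call in place of the main one, the share of CD8 T-like cells (a difference of -5.16 percentage points, B2m-null minus control) and the share of NK-like cells (-1.92) passed (exact permutation p = 0.00794, adjusted 0.0397 for each). CD8 T cells were 13.1%, 3.06%, 4.02%, 4.96% and 4.95% of control and 2.54%, 0.370%, 3.38%, 4.96% and 0.830% of B2m-null mice (6.02 ± 4.03% against 2.42 ± 1.88%, exact permutation p = 0.0714, adjusted 0.238). NK cells were 5.53 ± 2.44% against 2.67 ± 1.31% (exact p = 0.0397, adjusted 0.198), pDC 1.53 ± 0.664% against 2.78 ± 0.589% (exact p = 0.0238, adjusted 0.198), and macrophages 37.7 ± 7.80% against 45.3 ± 10.9% (exact p = 0.246, adjusted 0.450), each with n = 5 and 5. The highest CD8 T share, in control replicate 1 mouse 1, set much of the control mean, and the groups overlapped in all 4 of these classes. A count model over cell numbers (edgeR) called none either, with unadjusted p of 0.0365, 0.0278 and 0.043 for CD8 T, NK and pDC shares. The CD8 T class was cluster 12 alone, while the unnamed clusters 6 and 7 also scored best as CD8 T cells. Cluster 6 held 6.59% and 6.46% of the cells of the control lanes against 2.04% and 6.35% of the B2m-null lanes. Cluster 7 held 7.41% and 5.04% against 4.33% and 4.22%. Hashtags were lost unequally: 26.0% and 1.73% of control against 48.3% and 30.4% of B2m-null CD8 T cells had none, and their part in the shares was not tested.

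**Figure D5:**
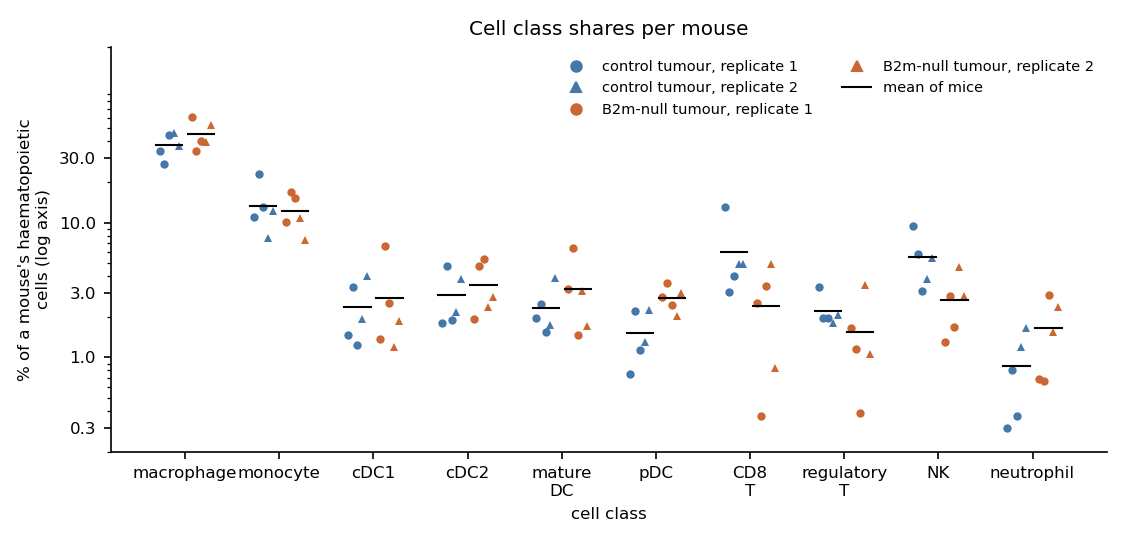
Share of each class among a mouse's haematopoietic cells in percent (log axis), with control mice in blue, B2m-null mice in orange, circles for replicate 1, triangles for replicate 2 and a line at the mean. CD8 T cells (6.02% against 2.42%) and NK cells (5.53% against 2.67%) average lower in B2m-null mice, with overlap between the groups.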

How the data were processed

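Single-cell libraries of 4 lanes were analysed from gene-by-cell UMI counts and hashtag counts deposited by the authors. They were made with Cell Ranger 3.0.0 on mm10 after bcl2fastq 2.20.0.422, per the submitters' processing notes, and values are raw counts with no normalization. The members and gene lists were chosen with earlier results of these data known, and cluster-naming thresholds were set after seeing the data.

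Barcodes were assigned to mice from hashtags (a minimum of 20 counts, 2.5 SD above background and a posterior of 0.9). Labels list 3 hashtags, and replicate 2 files hold 2. Cells were clustered on a graph of shared neighbours with leidenalg 0.10.2 (2000 variable genes, 30 principal components, 20 neighbours, Leiden resolution 1). Genes of MHC class I, peptide loading and the interferon-gamma and type I interferon lists were kept out of the clustering. So were heat shock, mitochondrial, ribosomal protein, sex-linked, haemoglobin and receptor segment genes. No doublet caller other than hashtags was used. Macrophages were clusters 0, 1, 3 and 5, and monocytes were clusters 2 and 4.

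Counts were summed per mouse and class (minimum 20 cells, or per lane in melanoma-like cells) and tested with edgeR 4.0.16 (TMM, filterByExpr, quasi-likelihood test, Benjamini-Hochberg threshold 0.05 over all genes) in R 4.3.3. CPM is a gene's counts per 1000000 counts of a mouse in a class, and errors are SD over mice or SE of a log2 change. Genes were named by rule: B2m, and per class the largest 12 changes (macrophages) or 6 (others) in each direction with adjusted p under 0.05, at least 20 CPM, no overlap of mice and the same sign in all 4 lane differences. Other genes were named as list members or for their known role, with their values seen. Shares and B2m were tested by exact permutation (numpy 2.4.6).

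Alternatives were RLE scaling, DESeq2 1.42.0, genes with at least 1 count, the replicate block, the lane as unit, limma 3.58.1 voom, stricter cell limits (500 genes, 5% mitochondrial), a hashtag ratio call (3), thinning to 2000 UMIs and leaving out lanes or mice. Single macrophage clusters and the unnamed T cell cluster 6 were added after seeing the data. On simulated counts the edgeR step recovered 88% of 2-fold changes in macrophages (11016 genes) and 62% in CD8 T cells (7775 genes). Of the genes called in the macrophage simulation 10.2% were false. The simulated mice were independent, with no lane effect, so that share does not measure false calls among mice that share lanes. Intervals of count ratios cover counting error only. A few results are not reported here.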

Additional observations from a re-analysis of the deposited data

Results flagged for a closer look

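Among 379 groups of 4 or 5 mice, 28 had 1 mouse far from the others by Dixon's test at the 95% level, where chance gives about 1 in 20. In macrophages of B2m-null mice these were St6gal1 at 45.1 CPM (others 20.7 to 24.7), Megf9 at 17.1 (22.9 to 25.04), Serpina3g at 71.8 (16.7 to 29.4) and Timd4 at 15.3 (2.99 to 5.44), and in control mice B2m at 5000.4 CPM (3599 to 3889). In monocytes Ccl5 stood at 488 CPM in 1 control mouse (109 to 158).

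In dendritic cells of B2m-null mice the outlying values were Whamm at 0 CPM in cDC1 (18.0 to 22), and in cDC2 Mrc1 at 429 (256 to 306), Ly6a at 586 (292 to 361) and Isg15 at 291 CPM (69.5 to 96.2). The smallest B2m-null cDC1 sum held 76215 UMIs from 20 cells, where a few counts set such a value. In control cDC2 Dapk1 was at 70.6 CPM (44.3 to 51.8). In B2m-null pDC Ccl24 was at 458 CPM (47.5 to 137), Nedd9 at 97.2 (54.3 to 64.2) and Irf7 at 184 (90.7 to 109), and in control pDC H2-Q7 was at 896 CPM (671 to 706) and Psmb8 at 716 (650 to 661).

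In B2m-null CD8 T cells 1 mouse held Gzmd at 10.5 CPM (1 count, with 0 in the others), Gzme at 52.7 (0 to 2.73) and Gzmf at 127 (0 to 0.910), 1 held Ifng at 2810 CPM (211 to 327) and 1 held Pdcd1 at 259 CPM (194 to 200). In control CD8 T cells Pdcd1 was at 288 CPM (245 to 251), Nkg7 at 1845 (1414 to 1535) and Gzma at 479 (61.2 to 122). In control NK cells Klrc1 was at 140 CPM (102 to 112). Among class shares, cDC1 made up 6.69% of 1 B2m-null mouse (1.19% to 2.54%), CD8 T cells 13.1% of 1 control mouse (3.06% to 4.96%) and regulatory T cells 3.31% of 1 control mouse (1.81% to 2.07%).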

How the results depend on the processing

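RLE scaling and DESeq2 kept every class's count of called genes within 1.5 times. DESeq2 gave an adjusted p for only 1 of 12 named CD8 T genes, 2 of 12 in NK cells and 6 of 11 in cDC1. With genes of at least 1 count, calls numbered 446 in monocytes, 121 in cDC1, 242 in cDC2, 71 in mature DC, 119 in pDC, 253 in CD8 T, 46 in NK and 636 in melanoma-like cells. Thinning gave 955 in macrophages, 15 in cDC1, 63 in cDC2, 0 in pDC (edgeR, 114 at an unadjusted p under 0.05), 43 in CD8 T, 12 in NK and 44 in melanoma-like cells. The strict cell limits gave 915 in macrophages, 15 in cDC1, 13 in mature DC, 18 in CD8 T, 15 in NK and 80 in melanoma-like cells. They gave no value for pDC or for B2m per mouse, nor did the ratio call for B2m. The lane as unit gave 829 in macrophages, 27 in monocytes, 2 in cDC1, 69 in cDC2, 6 in mature DC and 9 in NK. The hashtag ratio call gave 530 in macrophages, 6 in pDC, 26 in CD8 T, 0 in NK (edgeR, 239 unadjusted) and 2 class shares. Voom gave 158 in monocytes and 43 in CD8 T. With at least 10 cells a mouse, B2m in melanoma-like cells differed by -1158 CPM. Macrophage clusters 1, 3 and 5 alone gave 594, 104 and 186. The cause of each move was not tested.

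The replicate block gave 53 calls in cDC1, 148 in CD8 T, 12 in NK and 114 in melanoma-like cells, and moved no other count by 1.5 times. Same-numbered lanes shared a number and the count of mice (3 in replicate 1 and 2 in replicate 2). Correlations of their deviations were -0.05 to 0.05, from a single pair of lanes per class, which cannot show whether they shared a batch.

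Leaving out 1 lane or mouse gave 72 to 1849 calls in macrophages, 18 to 817 in monocytes, 2 to 407 in cDC1, 50 to 250 in cDC2, 0 to 90 in mature DC, 0 to 35 in pDC, 40 to 199 in CD8 T, 1 to 111 in NK and 204 to 1281 in melanoma-like cells, with the single remaining lane assumed to vary like the others. B2m differed by -1325 to -838 CPM and 0 shares passed throughout. Reversed directions were Cd244a (0.16) in macrophage cluster 1, Cbr2 (-0.092) and Folr2 (-0.053) in cluster 3, Ciita (0.061) and Fdps (0.15) in cluster 5, and Gzma in thinned NK cells (0.000367). In simulated counts, drawn without a lane effect, 62% of 2-fold changes were recovered at the size of the CD8 T class, against 88% in macrophages. There 10.2% of the genes called had not been changed.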

Other observations

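For the gene groups that follow, the share of all genes called was 13.9% in macrophages, 3.15% in monocytes, 1.09% in CD8 T cells, 0.471% in NK cells, 0.625% in mature dendritic cells and 1.91% in melanoma-like cells. Of 20 cell cycle genes none was called in macrophages, CD8 T cells, NK cells or melanoma-like cells by edgeR (medians of -0.01, 0.22, 0.41 and 0.17). Oxidative phosphorylation genes were called for 1 of 14 in macrophages, Sdhb, lower, and for none in the other classes by edgeR. Outside that list, other respiratory chain and ATP synthase genes were called higher: Atp5mpl in 7 immune classes, and Atp5k, Uqcr11 and Ndufb1-ps in 4 each. Of 15 cholesterol synthesis genes in macrophages, Fdps, which makes farnesyl diphosphate, was the 1 called, lower. Pfkp, a phosphofructokinase, was the 1 called of 18 glycolysis and hypoxia genes in macrophages and of 12 in mature dendritic cells, lower in both. Arg1 was called higher in monocytes, of 17 tested.

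Of 17 heat shock and dissociation genes Atf3 was lower in macrophages and Hsph1 higher in cDC2 and NK cells, and none was called in CD8 T or melanoma-like cells by edgeR. The mitochondrial transcript mt-Nd3 was higher in macrophages, monocytes and cDC2.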
